A study of Mus musculus with 9 samples.

Results

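The genes described here encode 41 transcription factors or cofactors that specify cell lineages in the early mouse embryo. They were listed by name and by role, with earlier results of these data known. They cover the primitive streak and early mesoderm (T, Mixl1, Eomes, Gsc, Mesp1, Tbx6), the endoderm (Gata4, Gata6, Sox17, Foxa1, Foxa2), the heart, lateral mesoderm and blood (Hand1, Hand2, Tbx5, Nkx2-5, Isl1, Gata2, Runx1), the trophoblast and posterior axis (Gata3, Cdx1, Cdx2), the neural lineage (Sox1, Pax6, Otx2, Neurog1, Neurog2, Olig2, Nkx2-2, Dlx1, Dlx2, Lhx2, Lhx5), and the neural crest, somites and mesenchyme (Pax3, Pax7, Msx1, Msx2, Twist1, Snai1, Foxc1, Foxc2, Eya1). Of 21673 protein-coding genes whose 5′ end fell in a deposited window, these were 41. The start-site windows of 40 of them had a value in every library. A further 496 windows overlapped the bodies of the 41 genes or the 5 kb upstream of them and held no protein-coding 5′ end; these are called the surrounding windows.

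Chromatin accessibility was measured by NOMe-seq, in which fixed nuclei are treated with an enzyme that methylates cytosine in GpC dinucleotides wherever nucleosomes leave the DNA exposed, so that a higher percent GpC methylation stands for more open chromatin. The cells were a female mouse embryonic stem cell (mESC) line from an F1 cross of the FVB and CAST strains, expanded in 2i medium and then weaned into DME HiHi medium, a serum medium in which they differentiate without being directed to a lineage. There were 9 libraries, with 1 from undifferentiated cells at day 0 and 1 at each of days 4, 5, 6 and 7 from cells carrying a non-silencing control hairpin (Nons) or a hairpin against Smarcc1, named Smarcc16 in the sample titles. Both arms were virally transduced on day 2 and placed under puromycin from day 3, while the day 0 cells were harvested before either step. The knockdown rests on 1 hairpin. RNA was not measured in this assay, so neither the loss of Smarcc1 nor the lineage of the cells could be checked in these libraries. In separate RNA-seq of differentiating F1 cells of the same cross, the study reports that the knockdown persisted. Smarcc1 encodes a core subunit of BAF, a complex that slides and evicts nucleosomes. No condition was repeated on any day, so differences between libraries have no replicate check, and the depth behind each percent is unknown. Below, the Nons series and the knockdown series stand for the libraries of days 4, 5, 6 and 7 in that order.

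Genes of this kind are silent or nearly so in pluripotent cells and are switched on in separate sets as cells commit to a lineage. Most have promoters within CpG islands, and in mESCs they are the textbook examples of bivalent chromatin, where the active mark H3K4me3 and the Polycomb mark H3K27me3 lie on the same promoter. Many also sit in broad domains of unmethylated, CpG-rich DNA that extend beyond the promoter into the gene.

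Because whole libraries differed in level, each value was set against its class in the same library. For a start-site window the class was the 19603 start-site windows of other protein-coding genes, whose median ran from 8.86% in Nons at day 7 to 30.5% in Nons at day 5. Single windows were variable. Over the class windows, the Pearson correlation between libraries was 0.322 in the median of the 36 pairs, a description across windows that are not independent. For the 40 lineage windows it was 0.140, with pairs from -0.178 to 0.379. The SD over the 9 libraries of a lineage window's level relative to its class had a median of 8.12 percentage points, against 7.20 for class windows.

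The promoter sequences of the windows at either end of the ranking by level show what the assay could read. Of the 41 genes, 30 matched an entry by symbol among the RefSeq promoters of GRCm38.p6, which span 250 bases before to 50 bases after a start. Capitals mark each GpC followed by A, C or T on the printed strand (GCA, GCC or GCT). A GpC followed by G overlaps a CpG, where the cell's own methylation cannot be told from that of the enzyme, and is left in lower case. Of the windows with a value in every library and an entry, the first 3 belong to the most open and the last 3 to the least open.

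Eomes: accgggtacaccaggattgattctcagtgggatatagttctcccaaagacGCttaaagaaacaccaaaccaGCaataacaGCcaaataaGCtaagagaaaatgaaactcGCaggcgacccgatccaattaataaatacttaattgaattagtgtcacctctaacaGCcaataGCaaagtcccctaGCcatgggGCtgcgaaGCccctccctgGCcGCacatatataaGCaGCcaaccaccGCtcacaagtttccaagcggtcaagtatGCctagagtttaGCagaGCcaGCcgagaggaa
Foxa1: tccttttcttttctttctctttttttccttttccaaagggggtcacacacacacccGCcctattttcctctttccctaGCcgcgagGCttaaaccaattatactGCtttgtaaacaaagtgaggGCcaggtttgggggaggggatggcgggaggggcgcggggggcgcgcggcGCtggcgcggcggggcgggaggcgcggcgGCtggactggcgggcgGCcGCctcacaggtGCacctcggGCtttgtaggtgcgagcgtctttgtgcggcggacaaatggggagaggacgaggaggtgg
Twist1: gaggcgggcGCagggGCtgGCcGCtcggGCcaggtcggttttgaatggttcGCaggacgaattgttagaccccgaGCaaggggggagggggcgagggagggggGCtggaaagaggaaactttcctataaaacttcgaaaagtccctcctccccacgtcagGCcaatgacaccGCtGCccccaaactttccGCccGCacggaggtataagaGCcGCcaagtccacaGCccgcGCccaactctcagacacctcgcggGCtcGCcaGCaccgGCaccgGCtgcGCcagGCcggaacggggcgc
Foxa2: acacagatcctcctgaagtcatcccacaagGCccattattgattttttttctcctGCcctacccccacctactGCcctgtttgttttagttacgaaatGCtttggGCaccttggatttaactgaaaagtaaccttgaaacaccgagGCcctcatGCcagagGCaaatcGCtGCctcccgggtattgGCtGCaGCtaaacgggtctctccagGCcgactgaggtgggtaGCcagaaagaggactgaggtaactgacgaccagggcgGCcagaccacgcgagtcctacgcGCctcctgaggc
Tbx6: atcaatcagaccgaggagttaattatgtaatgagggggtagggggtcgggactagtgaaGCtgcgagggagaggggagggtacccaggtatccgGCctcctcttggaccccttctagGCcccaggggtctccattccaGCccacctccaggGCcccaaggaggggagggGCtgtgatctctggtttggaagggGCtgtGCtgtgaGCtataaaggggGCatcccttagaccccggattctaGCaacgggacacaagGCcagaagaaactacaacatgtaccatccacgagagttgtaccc
Lhx2: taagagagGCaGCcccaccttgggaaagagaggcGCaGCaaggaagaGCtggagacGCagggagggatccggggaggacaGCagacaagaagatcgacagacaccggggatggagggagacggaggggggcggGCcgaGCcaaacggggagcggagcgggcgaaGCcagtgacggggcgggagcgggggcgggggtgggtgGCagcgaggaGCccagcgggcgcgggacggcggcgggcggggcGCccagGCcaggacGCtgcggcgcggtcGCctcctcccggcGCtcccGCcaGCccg

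Eomes is at chr9:118477939-118478238 (plus strand), Foxa1 at chr12:57546062-57546361 (minus), Twist1 at chr12:33957421-33957720 (plus), Foxa2 at chr2:148046920-148047219 (minus), Tbx6 at chr7:126781233-126781532 (plus) and Lhx2 at chr2:38339031-38339330 (plus). All 6 lie inside the deposited start-site window of their gene. They held 19, 11, 24, 17, 12 and 19 marked GpC in that order, so the 3 high and the 3 low promoters overlapped in readable sites. Their CpG counts were 10, 26, 27, 12, 7 and 34. Among the 30 matched promoters, those of Gata3, Nkx2-2, Otx2, Nkx2-5, Dlx1 and Pax7 were not inside the start-site window of their gene. Their starts were 560 (Pax7) to 11434 bases (Gata3) from the 5′ end used here. The start-site values given below for these genes are thus not those of the matched promoter. Over the 30 matched promoters the median was 18 marked GpC of 27.5 GpC in all, with 22 CpG. Over all 32851 promoters the medians were 17, 20 and 7, and 99.99% of them held at least 1 marked GpC. The lineage promoters were thus far richer in CpG than promoters at large and held about as many readable sites. The letters TATAAA, read on both strands, occurred in 5 of the 30 (16.7%), among them Twist1 and Tbx6 above, and in 13.6% of all promoters.

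The start-site windows of the lineage genes were, in the median, a little more open than those of other genes. Their median was 17% at the outset, where the class median was 15%. Along the Nons series it was 22.5%, 32.9%, 18.3% and 10.6%, beside class medians of 19.1%, 30.5%, 14.3% and 8.86%. Along the knockdown series it was 15.3%, 28.7%, 19% and 11.9%, beside class medians of 15%, 26.2%, 16.1% and 9.68%. The lineage median was above the class in 9 of 9 libraries, by between 0.325 and 3.97 points, and followed the rise to day 5 and the fall to day 7 of all windows. The difference had a mean of 2.37 points and an SD over the libraries of 1.04. With windows at the start of any transcript of each gene in place of its 5′ end, the mean was 4.74 points. With means over windows in place of medians it was 1.54, and without windows at 0% or 100% it was 1.498. It was small beside the spread of the windows, since 21 to 28 of 40 lineage windows lay above the class median in any 1 library.

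**Figure D1:**
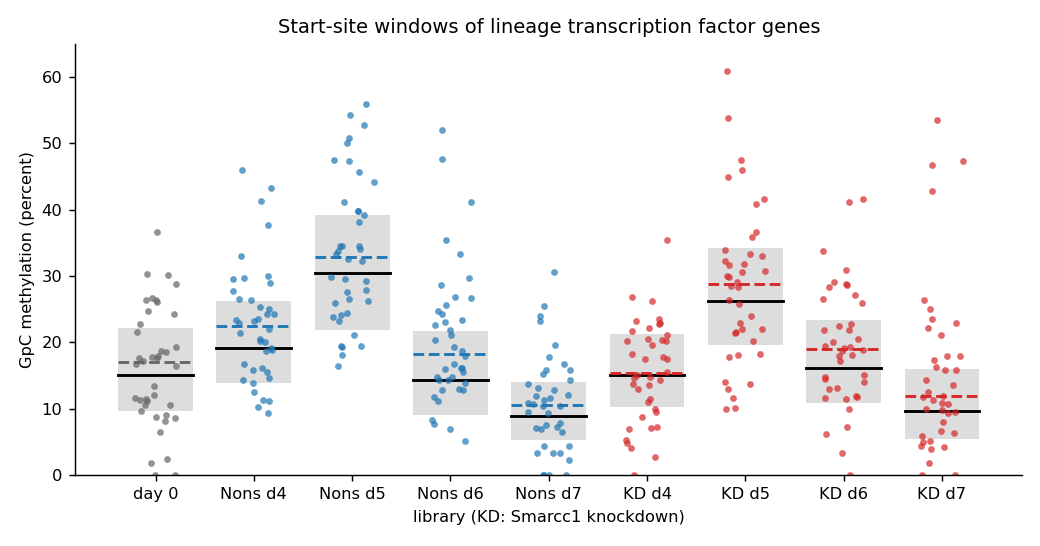
GpC methylation in percent (vertical axis) of the 40 start-site windows of lineage factor genes (1 point per gene) in each of the 9 libraries (horizontal axis, KD is the Smarcc1 knockdown). Dashed lines are the medians of the 40 genes, and black lines and grey boxes are the median and the quartiles of 19603 start-site windows of other genes. The dashed line is above the black line in all 9 libraries, by 0.325 to 3.97 points, within a much wider scatter of single genes.

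No lineage gene was above the class median in all 9 libraries, which held for 4.81% of all start-site windows, and 1 of 40, Gata4, was below it in all 9, which held for 4.88%. Most genes changed sides from library to library. Of the 40, 24 were above the class in 3 to 6 libraries, 13 in 7 or 8, and 3 in 2 or fewer. The mean over the libraries of the level relative to the class was positive for 31 genes and negative for 9, and for 36 of the 40 the SD over the libraries was larger than that mean. The 4 exceptions were Eomes and Sox17, whose mean was above the class, and Mixl1 and Gata4, whose mean was below it. The shares of class windows that changed sides, or whose SD exceeded their mean, were not computed.

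The CpG content of the windows moved with their level. The lineage windows had a median of 46 CpG per kb and 54.3% GC, against 21.6 per kb and 48.8% in the class, and 36 of 40 exceeded the class median in CpG density. Across the 19603 class windows, Spearman's rho between CpG density and mean relative level was 0.753. Across the 40 lineage windows it was 0.491. Both are descriptions across windows of the same 9 libraries.

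Set against windows of like CpG density, the lineage start sites were less open rather than more. Each lineage window was compared with class windows within 5 CpG per kb of it, a reference chosen after the data had been seen. The median difference was then negative in 9 of 9 libraries, from -0.133 points in Nons at day 6 to -4.21 in Nons at day 5, with a mean of -2.15 and an SD of 1.38. With windows of like GC content (within 2 percentage points) it was -0.358 in the mean, with library values from -1.83 to 0.884. By single genes, 25 of 40 had a negative mean and 15 a positive mean against the CpG-matched windows. Of the 20 genes named by rule, Cdx2, Foxa2, Gata6, Hand1, Hand2, Msx1, Sox1 and T had a positive mean against the class and a negative one against the CpG-matched windows.

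The same order was seen within fixed ranges of CpG density. Among the 9 genes with 60 or more CpG per kb (Eomes, Gsc, Hand2, Neurog1, Neurog2, Olig2, Msx1, Twist1, Snai1), the median was below that of 1570 class windows in 9 of 9 libraries, with 19.2% against 22.7% at day 0 and 17.1% against 24% in the knockdown at day 6. For the 14 genes between 40 and 60 per kb it was below in 8 of 9 libraries, with 17.4% against 20.6% at day 0. For the 14 genes between 20 and 40 it was below in 7 of 9, with 12.4% against 17.8% at day 0. The 3 genes below 20 per kb (Gata4, Runx1, Eya1) were below the class in 3 of 9. The part that any other property of these windows had in the difference was not tested.

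**Figure D2:**
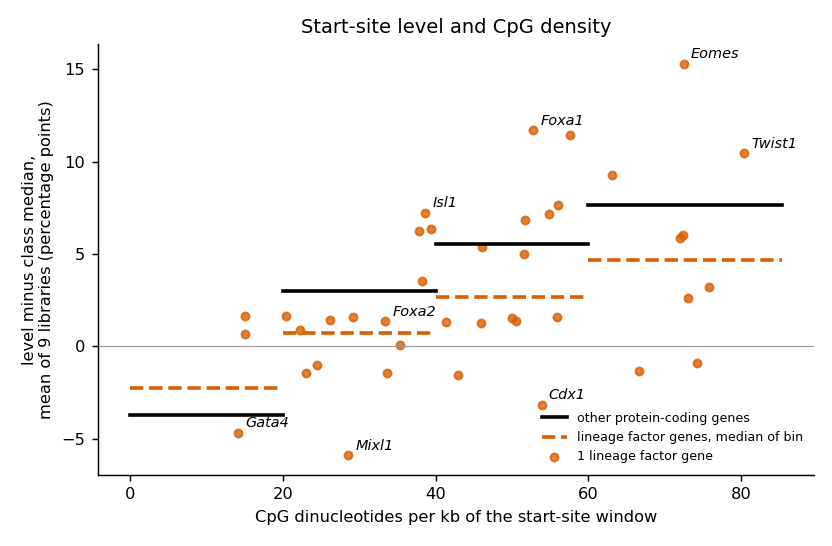
Level relative to the class median, as the mean of 9 libraries in percentage points (vertical axis), against the CpG density of the start-site window (horizontal axis). Each point is 1 of 40 lineage factor genes; lines span 4 ranges of CpG density and give, for other genes (black) and for the lineage genes (dashed), the mean over libraries of the median in that range. Levels climb with CpG density in both, and the dashed line is below the black one in the 3 ranges from 20 CpG per kb up.

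In the median over genes, the surrounding windows were more open than those of other genes. Taking the median of each gene's surrounding windows and then the median over the 41 genes, the level was 13.7% at the outset, where that of 21334 other genes was 11.6%. It was 17.6%, 26.6%, 14.4% and 8.53% along the Nons series, beside 14.2%, 21.5%, 10.4% and 6.54% for other genes. Along the knockdown series it was 13.5%, 23.6%, 14.3% and 8.54%, beside 11.4%, 20.4%, 12.1% and 7.43%. The lineage genes were above the others in 9 of 9 libraries, by 1.12 to 5.12 points, with a mean of 2.81 and an SD over libraries of 1.23. In any 1 library 28 to 36 of the 41 genes were above.

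For 10 of 41 genes the surrounding windows were above the class in all 9 libraries, which held for 3.68% of all genes. These were Mixl1, Gata3, Pax6, Otx2, Olig2, Nkx2-2, Lhx2, Msx1, Foxc1 and Foxc2, so 5 of the 11 neural genes and 3 of the 9 crest, somite and mesenchyme genes were among them. None of the 41 was below the class in all 9, which held for 2.82% of all genes. A gene with few windows gives a less settled median, and the lineage genes had a median of 5 surrounding windows, against 9 for other genes. Among genes with 1 to 5 such windows, 5 of 24 lineage genes and 2.76% of 6957 others were above in all libraries. With 6 to 15 windows it was 5 of 10 and 2.89% of 7612. With 16 to 100 windows it was 0 of 7 (Gata4, Gata6, Tbx5, Runx1, Pax3, Pax7, Eya1) and 5.44% of 6144. The mean levels of these 7 lineage genes relative to other genes ran only from -0.646 points (Runx1) to 0.972 (Tbx5). A gene with few windows also has more of them near its start, and the part of gene length in the raised level was not tested.

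Foxc1, Olig2 and Msx1 were the farthest above other genes in the mean of the 10. Msx1 is a homeobox gene of the neural crest and limb. Its 5 surrounding windows had a median of 23.5% at the outset, of 24.5%, 24.8%, 18.4% and 11% along the Nons series and of 18.9%, 26.5%, 21.2% and 11.5% along the knockdown series, 7.20 ± 2.97 points above other genes (SD, 9 libraries). Around Foxc1, a forkhead gene of paraxial mesoderm and mesenchyme, the values were 18.2% at the outset, 17.9%, 41.3%, 14.6% and 10% along the Nons series and 23.2%, 28.1%, 19.3% and 12.5% along the knockdown series, 7.72 ± 5.20 points above. The Nons library at day 5 stood out for Foxc1 and not for Msx1. Around Olig2, a bHLH factor of motor neurons and oligodendrocytes, the 4 windows had 21.5% at the outset, 26.9%, 33.5%, 19.6% and 12.6% along the Nons series and 12%, 30.6%, 18.3% and 8.97% along the knockdown series, 7.62 ± 4.34 points above. Around Otx2, a homeobox gene of the epiblast and forebrain, the 8 windows had 15% at the outset, 20.9%, 29.2%, 12.4% and 9.49% along the Nons series and 18.4%, 27%, 13.7% and 8.54% along the knockdown series, 4.34 ± 2.63 points above. All 4 genes had their highest value of each arm at day 5 and their lowest at day 7, as the class did.

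The surrounding windows of the lineage genes were also the richer in CpG, with a median over genes of 20.1 per kb against 9.66 for other genes. Against windows of like CpG density they stayed higher, with a median difference above 0 in 9 of 9 libraries (0.611 to 3.60 points) and a mean of 1.37. By gene, 4 of 41 (Gata3, Mixl1, Nkx2-2 and Sox1) were then above in all 9 libraries, against 3.75% of 21334 other genes, with the CpG density of each window rounded to 1 per kb for the matching. Without that rounding the count was 3 of 41, and it was not computed for other genes. The direction was the opposite of that at the start sites, where the CpG-matched difference was negative.

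Read outwards from the start, the raised level of the lineage genes reached further on the side of the gene than upstream. For the shorter genes the later positions lie past the 3′ end. The comparison is with all other genes and was not matched for CpG density. In the start-site window itself the lineage median exceeded that of other genes by 2.11 ± 1.03 points (mean and SD over 9 libraries). In the next window along the gene the difference was 4.23 ± 2.26 points, in the second 3.82 ± 1.77, in the third 2.53 ± 1.77 and in the fourth 2.79 ± 1.42. On the upstream side it was 2.86 ± 1.33 points in the first window, 2.04 ± 1.22 in the second and 1.23 ± 0.888 in the third, and 0.337 ± 1.17 in the fifth. At day 0 the lineage genes had 17% at the start, 16.9% in the next window and 17.6% in the one after, while other genes had 15.3%, 12.5% and 11.6%. At day 0 the level of other genes was thus well below the start in the next window, and that of the lineage genes only in the third (13%). In the mean of the Nons series the lineage genes had 21.1%, 19.9% and 16.7% at the start and the next 2 windows, and other genes 18.5%, 14.1% and 13.1%. In the mean of the knockdown series the lineage genes had 18.7%, 16.2% and 16.4%, and other genes 17%, 13.6% and 12.8%. A level held through the second window was thus seen at day 0 and in neither mean. Depending on the library, 22 to 28 of 40 lineage start sites were above their own surrounding windows, where 64.1% to 76.7% of other genes were.

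**Figure D3:**
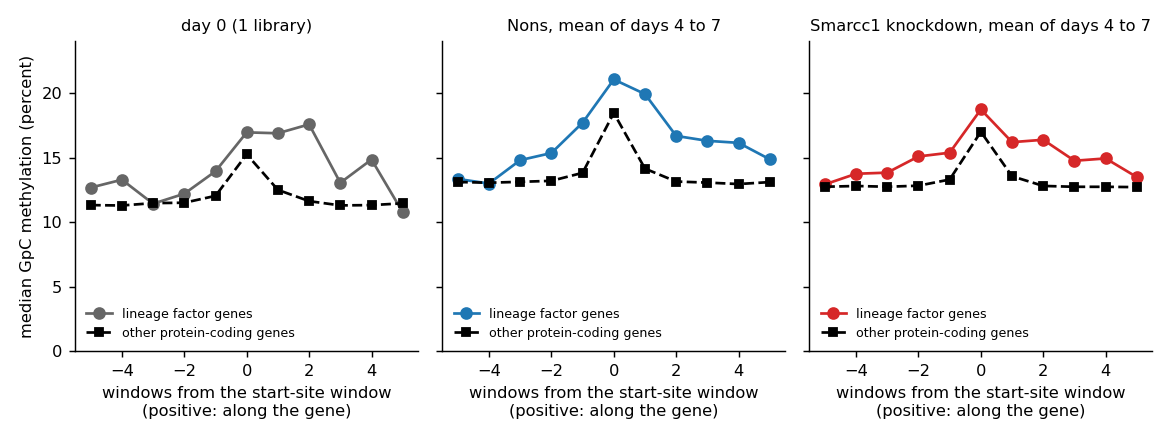
Median GpC methylation in percent (vertical axis) of successive deposited windows, numbered from the start-site window (0) with positive numbers along the gene (horizontal axis), for lineage factor genes (filled circles, 38 to 41 genes per position) and other protein-coding genes (squares). At day 0, in Nons and in the knockdown the lineage genes stay raised over windows 1 to 4, where other genes are near their level at the outer windows. Windows are not matched for CpG density.

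Among the primitive streak and early mesoderm genes the start sites ranged from the most to the least open of all 40. Eomes, a T-box gene of the streak, the endoderm and the trophoblast, had the highest mean percentile in the class (80.1). Its window (chr9:118477471-118479291, mm10) covers the first exon with its untranslated and coding parts and held 22.7% at the outset, 10.2%, 39.1%, 33.3% and 30.6% along the Nons series and 23%, 44.9%, 41.2% and 47.4% along the knockdown series. It was above the class in 8 of 9 libraries, the exception being Nons at day 4, and was 37.7 points above it in the knockdown at day 7. Mixl1, a homeobox gene of the streak, had the lowest mean percentile (23.7). The gene is on the minus strand, and its start-site window reaches only 26 bases past the 5′ end and is otherwise upstream. Its window (chr1:180697008-180699143) held 8.57% at the outset, 11.1%, 19.4%, 5.17% and 2.30% along the Nons series and 8.79%, 25.8%, 6.19% and 14.3% along the knockdown series. Only the last of these was above the class, although the surrounding windows of Mixl1 were above it in all 9. T, the founding T-box gene of the notochord and mesoderm, lay in between (chr17:8432372-8434566) with 8.70% at the outset, 25.3%, 38.1%, 16.7% and 25.5% along the Nons series and 14.7%, 29.8%, 3.23% and 5.06% along the knockdown series. It was above the class at days 4 to 7 of Nons and below it at days 4, 6 and 7 of the knockdown. Gsc, a homeobox gene of the organiser, ranged from 0% to 34.6% with a mean percentile of 43.5. Mesp1, a bHLH gene of cardiac mesoderm, ranged from 10.1% to 33.8% (55.4), and Tbx6, a T-box gene of presomitic mesoderm, from 4.92% to 26.7% (40.9). The median of the 6 genes was above the class in 5 of 9 libraries.

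The endoderm genes held the other member that stayed low. Gata4, a zinc-finger factor of primitive endoderm and heart (chr14:63270809-63273070, untranslated exon), had 10.5% at the outset, 12.5%, 27.8%, 7.69% and 4.35% along the Nons series and 7.02%, 21.6%, 11.9% and 9.30% along the knockdown series. Its level relative to the class was -4.68 ± 2.28 points over the 9 libraries, the smallest SD of the 40, and its CpG density of 14.1 per kb was the lowest. Foxa1, a pioneer factor of endoderm (chr12:57545823-57547926), had 11.5% at the outset, 37.7%, 41.2%, 52% and 14.3% along the Nons series and 23.2%, 35.8%, 18% and 26.3% along the knockdown series, and was above the class in all libraries but day 0. Foxa2, its relative in definitive endoderm and floor plate (chr2:148046387-148048875), had 9.09% at the outset, 16.1%, 34.1%, 24.3% and 3.23% along the Nons series and 6.85%, 13.7%, 13% and 46.7% along the knockdown series. Its last value was far above its other 8. Sox17, an HMG-box factor of endoderm and endothelium (chr1:4495738-4497852), had 17.9% at the outset, 26.5%, 27.6%, 28.6% and 11.9% along the Nons series and 22.8%, 40.9%, 22.7% and 11.8% along the knockdown series, above the class in 8 of 9 libraries. Gata6, which acts beside Gata4 in primitive endoderm (chromosome 18, 11050421 to 11052986), had 17.8% at the outset, 20%, 33.8%, 24.7% and 12% along the Nons series and 13%, 12.9%, 25.9% and 5.88% along the knockdown series.

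Of the heart, lateral mesoderm and blood genes with a value in every library, Isl1 had the highest mean percentile (71.3). Isl1 is a LIM homeobox gene of cardiac progenitors and motor neurons, whose start-site window reaches only 63 bases into the gene. Its window (chr13:116309626-116312422) had 13.5% at the outset, 23.3%, 50.9%, 23.3% and 17.8% along the Nons series and 26.2%, 23%, 18.8% and 23% along the knockdown series. Gata2, a zinc-finger factor of blood progenitors, had no start-site value in the knockdown at day 7, and its start site is in no count or fit. Its other 8 values were 46.4% at the outset, 25%, 39.1%, 31.7% and 22.6% along the Nons series and 7.84%, 50% and 30.6% in the first 3 knockdown libraries. These were above the class in 7 of 8 libraries, with a mean percentile of 78.7 over the 8. At day 0 the median of the 6 measured genes of the group was 25.3%, 10.3 points above the class, with 24.7% for Hand2, 26% for Hand1, 30.2% for Tbx5 and 30.4% for Nkx2-5 and lower values for Isl1 and Runx1. Tbx5, a T-box gene of heart and forelimb, ranged from 11.3% to 30.2% over all libraries, Nkx2-5, a homeobox gene of heart, from 0% to 30.4%, and Runx1, the regulator of blood stem cell formation, from 4.76% to 34.0%. In the other 8 libraries the group's median was between -2.61 and 7.03 points from the class.

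The trophoblast and posterior genes were the group least often above the class, in 3 of 9 libraries. Cdx2, a caudal-type homeobox gene of trophectoderm and the posterior axis (chr5:147306729-147308763), had 10.5% at the outset, 15.8%, 32.2%, 6.90% and 23.3% along the Nons series and 11.5%, 22%, 28.4% and 15.8% along the knockdown series. Cdx1, its relative in the posterior axis and gut (chromosome 18, 61035710 to 61038011), had 17.2% at the outset, 28.9%, 24.4%, 12.9% and 4.35% along the Nons series and 2.63%, 11.6%, 14.7% and 9.47% along the knockdown series, with a mean percentile of 37.0. Gata3, which acts in trophoblast and T cells, ranged from 0% to 39.8%.

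Among the neural genes the group median was above the class in 8 of 9 libraries. Pax6, the paired-box gene of eye and forebrain (chr2:105667670-105669861), was one of the steadier ones with 26.4% at the outset, 27.7%, 26.5%, 21.9% and 15.8% along the Nons series and 21.1%, 22%, 30.9% and 10.6% along the knockdown series. It did not share the peak of the libraries at day 5. Sox1, an HMG-box gene of the neural plate (chr8:12393504-12395986), had 18.5% at the outset, 16.7%, 45.7%, 8.33% and 10.4% along the Nons series and 26.9%, 31.7%, 29.1% and 12.5% along the knockdown series. Olig2 (chr16:91225168-91226909) had 8.11% at the outset, 29.7%, 29.6%, 12.8% and 23.9% along the Nons series and 9.41%, 10%, 7.23% and 11.9% along the knockdown series. All 4 knockdown values were below the Nons value of the same day. Lhx5, a LIM homeobox gene of the forebrain (chr5:120430681-120432108), had 26.3% at the outset, 23%, 34.5%, 41.2% and 6.49% along the Nons series and 0%, 31.6%, 17.9% and 42.9% along the knockdown series. Nkx2-2 had the highest mean level relative to the class of the neural genes (11.4 points) with an SD of 15.9, and ranged from 6.67% to 53.8%. Lhx2, a LIM homeobox gene of forebrain and eye, had the lowest mean percentile (41.7) and ranged from 3.23% to 24.2%. The proneural bHLH genes Neurog1 and Neurog2 ranged from 0% to 39.8% and from 9.26% to 55.9%, and Otx2 from 0% to 29.0%. The neighbouring homeobox genes Dlx1 and Dlx2 of forebrain interneurons differed in rank, with mean percentiles of 43.7 and 69.5 and ranges of 4.05% to 30.8% and 9.62% to 44.2%.

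The neural crest, somite and mesenchyme genes were the group most often open. Their median was above the class in 9 of 9 libraries, by 5.39 ± 5.12 points, and was the 1 group median above its CpG-matched windows in the mean (1.16 points), where the other 5 groups lay between -5.60 and -0.576. Twist1, a bHLH factor of mesenchyme (chr12:33956329-33958307), had 24.3% at the outset, 29.5%, 33.3%, 16.1% and 7.50% along the Nons series and 14.3%, 61%, 41.7% and 21.1% along the knockdown series. Msx1 (chr5:37823409-37824970) had 2.33% at the outset, 26.4%, 52.7%, 13.8% and 7.84% along the Nons series and 35.4%, 33%, 20% and 17.4% along the knockdown series, so its start site was far less steady than the windows around it. Pax7, a paired-box gene of crest and muscle stem cells (chr4:139833367-139835968), had 18.8% at the outset, 43.3%, 19.3%, 12.8% and 0% along the Nons series and 17.5%, 28.3%, 21.8% and 8% along the knockdown series. Snai1, the zinc-finger repressor of epithelial genes, ran from 0% to 53.6%, the knockdown values of days 6 and 7. Pax3, a paired-box gene of crest and somite, ranged from 11.4% to 47.5%, Msx2 from 6.52% to 30.6%, Foxc1 from 9.30% to 47.4% and Foxc2 from 9.80% to 34.5%. Eya1, a transcriptional cofactor of ear and kidney development with 38.1% GC in its window, ranged from 0% to 54.2% and had the lowest mean percentile of the group (47.1).

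**Figure D4:**
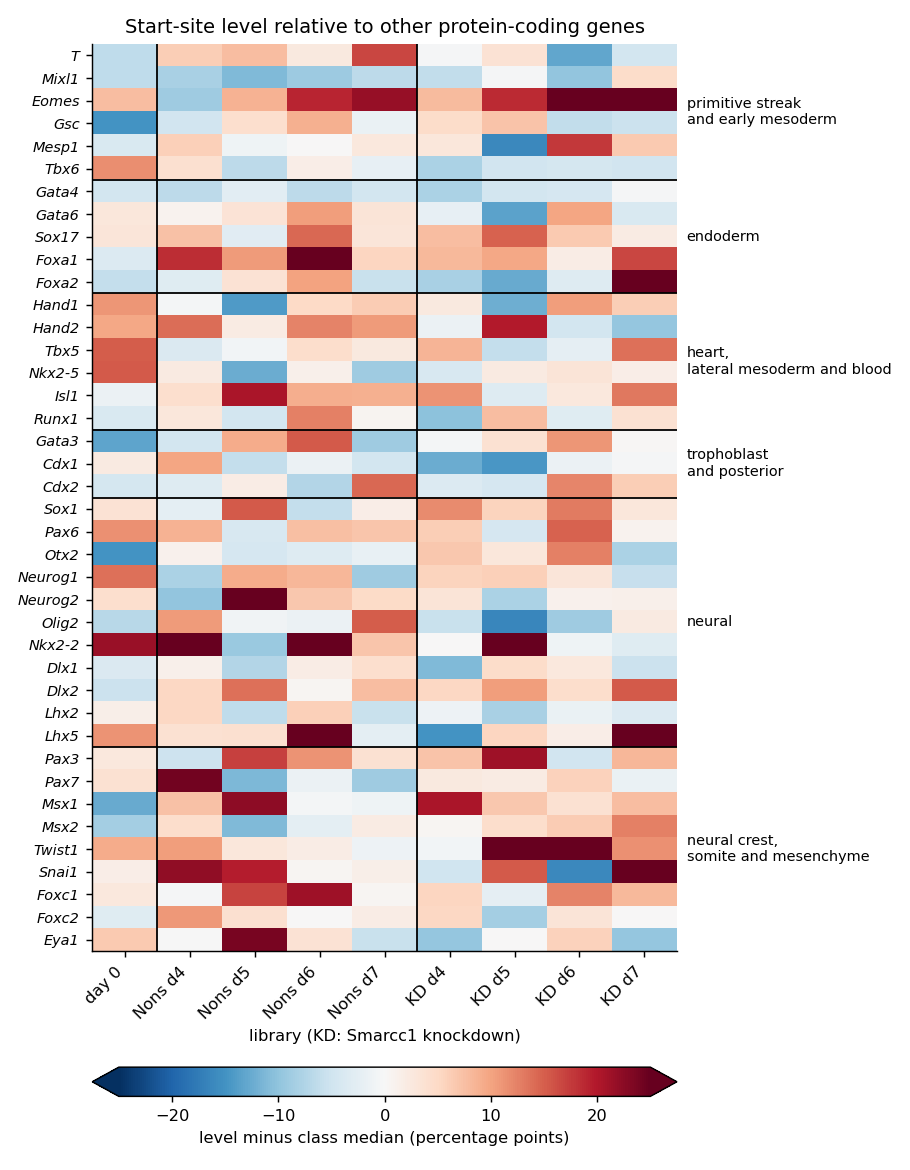
Level of the start-site window minus the class median of the same library, in percentage points (colour, red above and blue below the class, saturating at the ends of the scale), for 40 lineage factor genes in rows by role and 9 libraries in columns (KD is the Smarcc1 knockdown). Gata4 is the 1 row below the class in all libraries, Eomes, Foxa1, Sox17 and Dlx2 are above it in 8 of 9, and most other rows change colour from column to column.

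From day 0 to the differentiating cells, the median change at the lineage start sites was above that of the class in Nons at days 4, 5 and 6 and not at day 7. Along the Nons series the median change relative to the class was 3.95 points (24 genes higher, 16 lower), 1.44 (22 and 18), 4.99 (25 and 15) and 0.318 (23 and 17), beside class medians of -0.343, -1.86, 0.0591 and 0.413. Of the class windows 48.6%, 44.3%, 50.2% and 51.7% were higher, so that the 23 of 40 genes at day 7 were near the share of the class. Along the knockdown series it was -1.11 points (19 higher, 21 lower), 0.0481 (20 and 20), 2.35 (23 and 17) and 3.61 (23 and 17), beside class medians of -0.0913, -0.835, -0.0297 and 0.421 and 49.5%, 47%, 49.9% and 51.7% of class windows higher. These 8 values share the 1 day 0 library. The quartiles of single genes were wide, from -6.12 to 10.3 points at day 4 of Nons, so genes higher and genes lower than at day 0 were mixed at each step.

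The fit of late (days 6 and 7) against early days (days 4 and 5), with limma on quantile-normalised values of both arms, asked which windows changed from the first to the second part of the course. At an adjusted p under 0.05 it called 1 of 829493 windows (0.000121%) and 0 lineage windows, where the smallest adjusted p of the 40 start sites was 0.663. At an unadjusted p under 0.05, 3 of the 40 were higher late, against 3.65% of all start sites, and 1 was lower late, against 8.78%. The 3 were Eomes (19.4 points, limma adjusted p = 0.663), Hand1 (10.6 points, adjusted p = 0.889) and Lhx5 (13.4 points, adjusted p = 0.901), and the 1 was Msx1 (-12.7 points, adjusted p = 0.868). Eomes was at the mean percentile 64.5 in the early and 96.8 in the late libraries. Hand1, a bHLH factor of heart and trophoblast (chr11:57832712-57834665), had 26% at the outset, 18.6%, 16.4%, 19.3% and 15.2% along the Nons series and 17.4%, 14%, 26.6% and 15.8% along the knockdown series. It stayed between 14% and 26.6% while the class median ran from 8.86% to 30.5%. The window of Hand1 reaches only 106 bases into the gene and is otherwise upstream. The next ones on the lower side, not past the unadjusted threshold, were Pax7 (-10.3 points, limma adjusted p = 0.911) and Hand2 (-7.44 points, adjusted p = 0.925). Hand2, a bHLH factor of heart and limb (chr8:57320459-57322988), had 24.7% at the outset, 33.1%, 32.5%, 26.7% and 19.6% along the Nons series and 13.6%, 46%, 11.5% and 0% along the knockdown series. None of these passed adjustment over all windows.

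The knockdown was set beside Nons on the same day, with 1 hairpin and 1 library per arm and day. Whether a difference came from the loss of Smarcc1 was not tested. Relative to the class, the knockdown was lower at the lineage start sites at the 3 earlier days and higher at day 7. Over the 40 genes the median difference at the successive days was -3.02, -1.97, -2.57 and 3.53 points, beside class medians of 0.150, 0.827, -0.187 and -0.0588. The genes lower in the knockdown were 24, 23, 23 and 16 of 40, where 49.2%, 47.1%, 50.7% and 50.3% of class windows were lower. The mean over the days was -1.004 with an SD over days of 3.06, so it was smaller than the spread between days. It was -2.52 without day 7, -0.333 without day 4 and -0.483 without day 6, and -0.577 and -0.621 with windows of like CpG density and like GC content as the reference. At the surrounding windows the medians were 0.197, -1.36, -0.901 and -0.687 points, with 19, 28, 26 and 25 of 41 genes lower. The share of other genes lower at their surrounding windows was not computed, so these counts have no background to be read against.

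Single genes moved by more than the medians did, and some moved both ways. Of the 40, 34 differed between the arms by more than 10 points relative to the class on at least 1 day, which held for 76.1% of all start-site windows. More than 10 points higher on 1 day and more than 10 points lower on another were 14 of 40, which held for 22% of all. Moves of this size were thus common at start sites at large. Snai1 was -27.2 points at day 4 and 42.4 at day 7, and Nkx2-2 was 37 at day 5 and -34.4 at day 6. The mean over days was negative for 20 genes and positive for 20.

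Lower in the knockdown on 4 of 4 days were Olig2, T and Gata6, 3 of 40, which held for 6.03% of all start-site windows. Olig2 differed by -16.1, -15.3, -7.43 and -12.8 points at days 4 to 7, a mean of -12.9 ± 3.93 (SD over 4 days). T differed by -6.43, -4.12, -15.3 and -21.3 points, and Gata6 by -2.91, -16.7, -0.593 and -6.93. Higher on 4 of 4 days was Eomes, 1 of 40, which held for 6.76% of all, with 16.9, 10.04, 6.00 and 15.9 points. The first count was near that share and the second below it, and the pair of T-box genes of the streak, T and Eomes, lay on opposite sides.

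**Figure D5:**
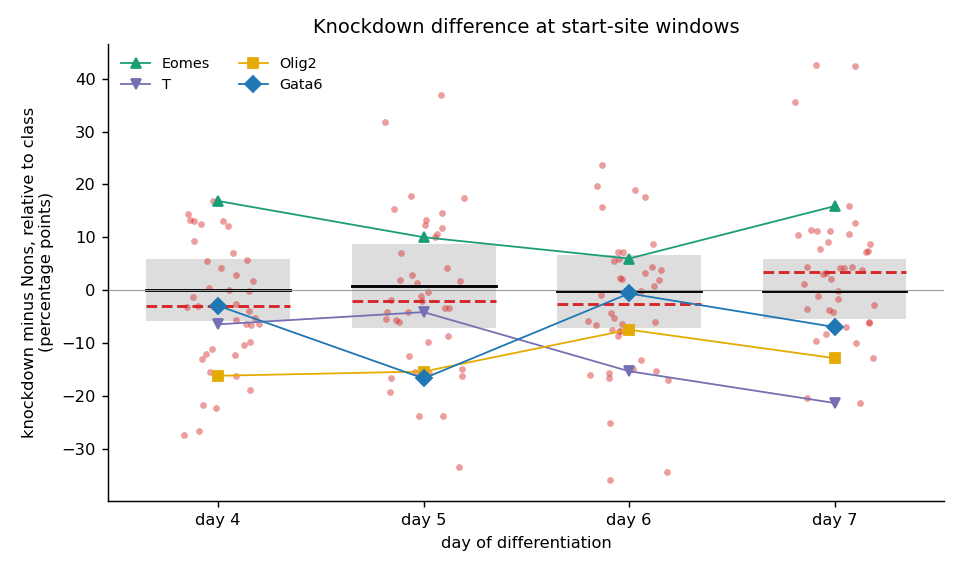
Knockdown minus Nons, relative to the class, in percentage points (vertical axis) at each day of differentiation (horizontal axis) for the start-site windows of 40 lineage factor genes (1 point per gene). Dashed lines are their medians (-3.02, -1.97, -2.57 and 3.53), black lines and grey boxes the median and quartiles of other genes, and the joined symbols follow the 4 genes with 1 sign at all days, Eomes above 0 and T, Olig2 and Gata6 below it.

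The limma fit of the knockdown effect shared by the 4 days, with day as a block, called 0 of 829493 windows (0%) at an adjusted p under 0.05, and so 0 lineage windows. This fit used percent values without normalisation, so differences between whole libraries remained in its counts by direction. Over all windows 35121 had an unadjusted p under 0.05, 13124 higher and 21997 lower in the knockdown. With quantile normalisation these were 20315 and 21142. The counts that follow are from the fit without normalisation. Of the 40 start sites, 2 were higher (Eomes, Twist1), against 2.89% of all start sites, and 3 were lower (Olig2, T, Eya1), against 7.6%, at an unadjusted p under 0.05. The smallest was that of Olig2, whose limma adjusted p was 0.995. Among the 496 surrounding windows, 8.27% had an unadjusted p under 0.05 in either direction, 17 higher and 24 lower in the knockdown, against 4.1% of the 395863 such windows of all protein-coding genes. In the late against early fit it was 9.07%, 24 higher and 21 lower, against 5.45%. Long genes supplied many of the 496 windows, with 94 from Runx1, 52 from Eya1 and 45 from Pax7, and neighbouring windows are not independent. Pooled in this way rather than by gene, the 496 had a larger SD over the libraries (a median of 5.99 points against 5.45 for the 395367 of other genes). They also had more CpG (13.4 against 8.76 per kb), and the part of each of these in the shares was not tested. The days are a time course with 1 library per arm, so these p-values measure the spread between days and not between cultures.

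The values of related gene lists stand beside these. Of 55 other lineage factor genes, 47 had a start-site value in every library, and the other 8 lacked 1 in 1 or 2 libraries. Their median was 1.17 ± 1.38 points above the class (mean and SD over libraries), above it in 7 of 9 libraries and -1.31 against windows of like CpG density. The 37 measured Hox genes had 1.63 ± 1.63 points, 8 of 9 libraries and -1.005. The 19 measured pluripotency genes had 5.35 ± 3.11 points, 8 of 9 libraries and 3.83. The lineage genes, with 2.37 ± 1.04 points, 9 of 9 libraries and -2.15, lay nearer to the Hox and other lineage lists than to the pluripotency list in these values. At an unadjusted p under 0.05 in the late against early fit, 1 of the 47 other lineage factors was higher and 2 were lower. For the 37 Hox genes it was 1 and 3, and for the 19 pluripotency genes 0 and 6, where 3.65% of all start sites were higher and 8.78% lower. In the knockdown fit, on values without normalisation, the counts for the same lists were 2 and 6, 0 and 6, and 1 and 1. There 2.89% of all start sites were higher and 7.6% lower. None passed an adjusted p under 0.05, and no difference between lists was tested.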

How the data were processed

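Of the files deposited, a table of percent GpC methylation in 9 libraries was used. Per the study's methods, the authors used trim_galore for trimming and Bismark for alignment to an mm10 genome masked where FVB and CAST differ, kept informative GpC positions with coverage2cytosine and averaged percent methylation over positions in Seqmonk. Per the file headers and name, the deposited percent values are over windows of 200 read positions and come from merged coverage files. The methods describe a shorter window with a further normalisation, and reads phased by haplotype, so how this table was made is known only in part. Medians differed between the libraries. There are no counts, so depth is unknown.

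Of 833294 windows, 829493 on chromosomes 1 to 19 and X had a value in every library, and 3551 did not. Gene positions came from GENCODE M21. Levels are the member's percent minus the class median of the same library, and percentiles are within the class. limma 3.58.1 (R 4.3.3) was used with Benjamini-Hochberg adjustment over all windows. It tested the knockdown (no normalisation, day as a block) and late against early days (quantile normalisation, arm as a term). Both were run on simulated data with a smaller spread between libraries than the real windows had. That run therefore does not show how often a real change would be found here. Tables were handled with Python 3.11.15 and pandas 2.3.3.

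The member genes and all lists were chosen with earlier results of these data known. Values in all libraries were given for T, Sox17, Gata4, Sox1, Pax6 and Cdx2, the 4 highest and 4 lowest mean percentiles, the genes with 1 sign on 4 of 4 days, and the 3 smallest late against early p-values in each direction (in part, as ranges); genes named for their surrounding windows were chosen after their values were seen. Alternatives were other scales, references, start definitions, filters and left-out libraries.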

Additional observations from a re-analysis of the deposited data

Results flagged for a closer look

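The knockdown minus Nons difference at the lineage start sites, relative to the class, had opposite signs at the first and the last day. Its median over the 40 genes was -3.02 points in the day 4 pair of libraries and 3.53 points in that of day 7. Each rests on 1 pair, and whether they differ was not tested.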

How the results depend on the processing

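Direction at the start sites turned on the reference. The mean difference from the class, 2.37 points, was -0.358 with windows of like GC content and -2.15 with windows of like CpG density, while that of the surrounding windows went from 2.81 to 1.37 with like CpG density. The CpG reference was chosen after seeing the data. Taking the start of any transcript gave 4.74 points at the start sites, 3 genes above the class in all libraries in place of 0, and 5 lower in the knockdown on 4 of 4 days in place of 3. On a log2 ratio scale 2 genes, in place of 1, were higher in the knockdown on 4 of 4 days. Leaving out 1 library in turn gave 0 to 2 genes above the class in all those left (2 without day 0, 1 without Nons at day 4 or at day 5), and leaving out 1 day in turn gave 4 to 8 genes lower (4, 6, 7 and 8 without days 4, 5, 6 and 7) and 3 to 5 higher (5, 4, 3 and 3) in the knockdown on all days left, since fewer days have to share a sign. The share of all start-site windows that meets each altered rule was not computed. For these reasons counts of genes with 1 sign throughout are descriptions only. The cause of the other changes was not tested. The other 101 values of main results kept their sign, and those in percentage points moved by less than the spread between libraries or days. The mean knockdown difference at the start sites, -1.004 points, still ran from -2.52 without day 7 to -0.333 without day 4. Of the 20 genes named by rule, 7 went from a positive to a negative mean level with windows of like GC content (Cdx2, Foxa2, Gata6, Hand1, Msx1, Pax7, T), and 8 with like CpG density (Hand2 and Sox1 and not Pax7 among them), all by less than their own SD over the libraries. Both limma counts stayed at 0 lineage windows under every alternative run. The days pair the arms, and the knockdown fit with no block for day gave 5922 windows at an unadjusted p under 0.05, against 35121 with it. Unknown depth limits all single-gene values.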
